A study of Mus musculus with 2 samples.

Results

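The olfactory receptor cluster of mouse chromosome 19 runs from position 11826803 to 13921866 of GRCm38, a span of 2.1 Mb. Its members were taken from GENCODE mouse release 21 by name and position: every gene in that span whose name starts with Olfr, pseudogenes included. This gave 91 genes of the 1407 so named over all chromosomes. Of the 91, 66 were annotated as protein-coding, 22 as unprocessed pseudogenes and 3 as polymorphic pseudogenes. Among the protein-coding, 3 carry pseudogene names, Olfr1555-ps1, Olfr1438-ps1 and Olfr1493-ps1, and are counted by their annotation. A further 13 protein-coding genes that are no receptors lay in the same span. The measurement set against them was a list of 8058 chromatin boundaries, of which 9 fell in the span and 3 in the 1 Mb to each side. The members were chosen by name and place, with no measured value, though earlier results of these data were known.

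The boundaries came from in situ Hi-C on mature olfactory sensory neurons, the cells of the nose that detect odorants. Untreated adult OMP-GFP mice of mixed sex gave the olfactory epithelium, and the neurons were isolated from it by FACS. In these mice the gene of the olfactory marker protein, used by mature neurons, marks them with the fluorescent protein, and the labels name the strain 129P2/OlaHsd. There were 2 biological replicates in 1 group, of 3000000 and 1500000 cells, and no second cell type or condition. The authors pooled both replicates into 1 contact map before listing boundaries, so no value below has a spread between replicates and no difference between regions was tested. Contact depth is unknown here, and the identity of the sorted cells could not be checked against marker genes, since RNA was not measured. All positions are on the GRCm38 reference, while the mice were 129P2/OlaHsd; whether the receptor copies of that strain differ from the reference was not tested.

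Olfactory receptors are G protein-coupled receptors and form the largest gene family of the mouse. Each is usually encoded by an uninterrupted coding exon with short noncoding exons upstream, and the genes sit in tandem arrays made by repeated local duplication. A mature neuron transcribes a single allele of a single receptor gene, while the other receptor clusters are packed in heterochromatin and gather with each other in the nucleus. A boundary is a position across which contacts are depleted, so that sequences on the same side meet more often than sequences on opposite sides. Many mammalian boundaries lie where the zinc finger protein CTCF stops cohesin from extruding a chromatin loop.

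Boundaries within the cluster ranged from among the strongest of the list to among the weakest. The authors' strength has no stated scale and is used here to rank boundaries within their list. It ran from 0.2 to 4.32 over all 8058 boundaries with a median of 0.509, and those over 0.5 were classed Strong and the others Weak. The 9 boundaries of the cluster had strengths of 0.433, 2.82, 0.792, 0.347, 0.814, 0.319, 0.239, 0.216 and 1.38 in order along the chromosome. Of these, 4 were Strong, or 44.4% (exact binomial 95% interval 13.7% to 78.8%, counting error only), against 50.8% of all boundaries. The strongest stood near the start of the cluster and the next strongest at its very end. The 3 weakest lay between them, at 1206, 1841 and 1936 kb from the start of the first receptor gene.

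**Figure D1:**
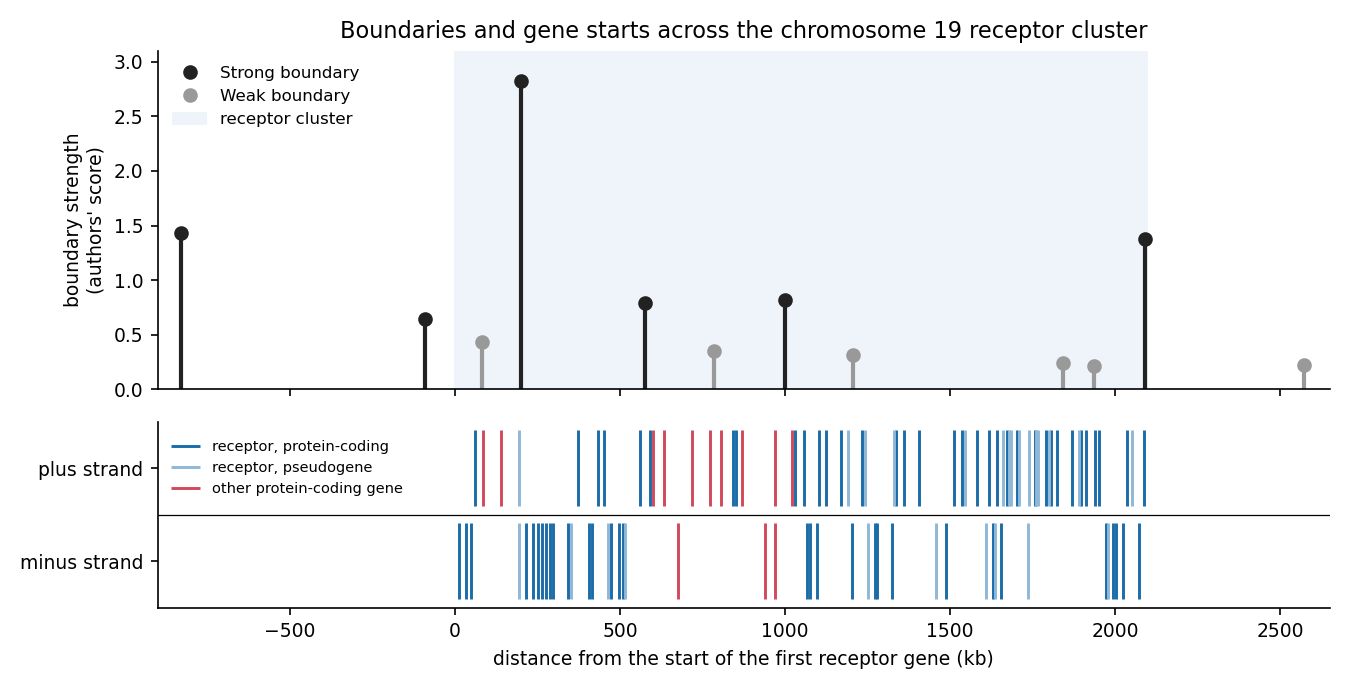
Upper panel: the authors' boundary strength (a score, linear axis) of each of the 12 boundaries, against distance in kb from the start of the first receptor gene, Strong in black and Weak in grey, with the cluster shaded. Lower panel: gene starts on each strand as ticks, for protein-coding receptors, receptor pseudogenes and other protein-coding genes. The boundary of strength 2.82 stands 200.7 kb into the cluster, the 3 Weak boundaries at 1206, 1841 and 1936 kb lie among receptors alone, and the boundary of 1.38 closes the cluster.

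The strongest boundary of the cluster, at chr19:12025001-12030000, ranked 29 of all 8058 by strength, and 99.6% of the list was weaker. On its left lay the receptor pseudogenes Olfr1421-ps1 and Olfr1422-ps1, the latter with its start 5.74 kb from the boundary's midpoint. On its right the nearest receptor was Olfr1423, whose start was 13.8 kb away and which reads toward the boundary. Beyond the pseudogenes stood Osbp, the oxysterol-binding protein that carries sterols between membranes, and beyond Olfr1423 followed an unbroken run of receptors. The boundary's own 5 kb bin held 275 bases of another pseudogene, Gm45116, and no part of a receptor.

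The boundary that closes the cluster, at chr19:13915001-13920000, had a strength of 1.38 and ranked 932. It fell on Olfr1505, the last receptor. The gene covered the whole bin, with 3465 bases of intron, 587 bases of untranslated exon and all 948 coding bases. Its start lay 3.97 kb before the midpoint, in a bin 5 kb from the boundary's. The cluster's last base was 1.87 kb past the bin. No protein-coding gene started in the 480 kb from this boundary to the next, at chr19:14395001-14400000 (Weak, 0.227). The nearest coding start to that last boundary was Tle4, a transcriptional corepressor of the Groucho family, 200 kb away.

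Another pair of Strong boundaries stood in the part of the cluster where receptors alternate with other genes. The boundary at chr19:12400001-12405000 (0.792, rank 2532) separated Olfr1440 from Olfr1441, with starts 15.2 kb and 14.9 kb from its midpoint. Its bin held 1584 bases of Olfr1440, all of them untranslated exon at the gene's 3′ end. The boundary at chr19:12825001-12830000 (0.814, rank 2445) lay wholly within Lpxn, which encodes leupaxin, a focal adhesion adaptor. Of that bin 4918 bases were intron and 82 were coding exon. Here no receptor started within 20 kb: the nearest were Olfr1444 at 29.8 kb on the right and Olfr1443 at 149 kb on the left.

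The Weak boundaries differed in their neighbours. The boundary at chr19:11905001-11910000 (0.433) lay between Olfr1420, with its start 20.9 kb to the left, and Patl1, a factor of mRNA decapping and decay that starts in the next bin. That at chr19:12610001-12615000 (0.347) lay in Gm4952, a gene of the glycine N-acyltransferase family, with 4904 bases of intron and 96 of exon in the bin. Its relative Glyat followed on the right. The former thus stood at the edge of a receptor block and the latter among non-receptor genes, and the other 3 Weak boundaries had receptors on both sides.

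Among receptors alone, the boundary at chr19:13030001-13035000 (0.319, rank 5733) had Olfr1453 4.17 kb to its left and Olfr1454 28.1 kb to its right. Further on, that at chr19:13665001-13670000 (0.239, rank 7123) stood 16.4 kb from the start of Olfr1490 and 29.8 kb from that of Olfr1491. The boundary at chr19:13760001-13765000 (0.216, rank 7656) shared its bin with the start of Olfr1495, 2.11 kb from the midpoint, and was 22.8 kb from Olfr1494. Only 4.99% of all boundaries were weaker than that last one, close to the lowest strength listed.

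In the flank before the cluster, both boundaries were Strong. The boundary at chr19:10995001-11000000 (1.43) lay between Ms4a15 and Ms4a18, and Ms4a15 was the nearest coding start at 5 kb. Closer to the receptors, that at chr19:11735001-11740000 (0.643) lay between Oosp3, of the oocyte-secreted proteins, and Gif, the gastric intrinsic factor that binds vitamin B12, 10 kb away. The 740 kb between these 2 boundaries held no olfactory receptor and 23 other coding genes, mainly the Ms4a family. Ms4a genes code for membrane-spanning proteins, some of which serve as chemoreceptors in a separate set of olfactory neurons. Gif itself lay in the interval of the first olfactory receptors.

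The 9 boundaries divided the members into 9 intervals, the outermost of which began at the boundary of 0.643 before the cluster. In order they held 4, 2, 20, 1, 2, 10, 37, 4 and 11 receptor starts. Their sizes were 170, 120, 375, 210, 215, 205, 635, 95 and 155 kb, against a median of 260 kb over 7997 intervals of the genome with at most 50 kb undetermined. Over all chromosomes, 142 intervals held a receptor start, with a median of 6 receptors and at most 59. Here the median was 4 and the highest 37.

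Most receptors lay in intervals without another coding gene, while every other coding gene of the span shared its interval with receptors. Of the 9 intervals, 4 held receptors and no other coding gene, and these 4 took in 72 of the 91 members over 1260 kb. The other 5 held the remaining 19 receptors with 16 other coding genes over 920 kb. Since receptors lie in runs along the chromosome, neighbours share an interval whether or not a boundary marks the end of a run. This count was not tested, and the same share was not counted for receptors elsewhere.

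**Figure D2:**
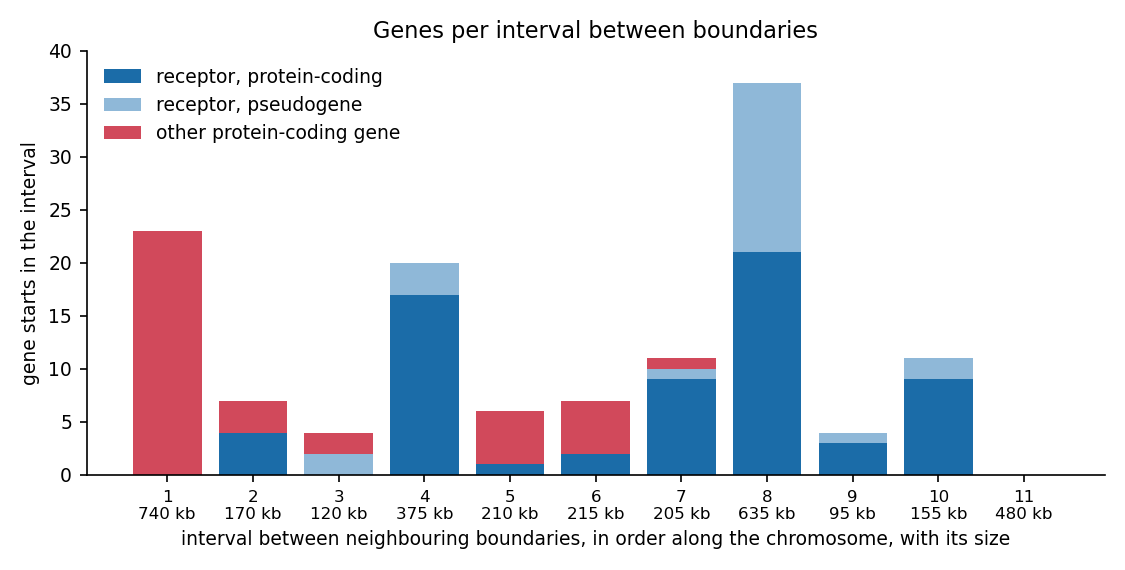
Number of gene starts (linear axis from 0) in each interval between neighbouring boundaries, in order along the chromosome with the interval's size in kb below, stacked as protein-coding receptors, receptor pseudogenes and other protein-coding genes. Interval 8 holds 37 receptors and interval 4 holds 20, both with no other coding gene, interval 1 holds 23 Ms4a, oocyte-secreted and other coding genes, and interval 11 holds none.

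The largest group, Olfr1454 to Olfr1490, held 37 receptors in 635 kb, and 93.5% of all intervals were shorter. It ranked 6 among intervals of the genome by number of receptors. It held 21 protein-coding receptors and 16 of the cluster's 25 receptor pseudogenes, with 26 genes on the plus strand and 11 on the minus strand. Both of its edges were Weak boundaries, of 0.319 and 0.239.

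The second group, Olfr1423 to Olfr1440, held 20 receptors in 375 kb, of which 17 were protein-coding and 16 read from the minus strand. It lay between the Strong boundaries of 2.82 and 0.792. The densest group was the last, Olfr1495 to Olfr1505, with 11 receptors in 155 kb, or 7.1 per 100 kb. The group before it, Olfr1491 to Olfr1494, was the smallest interval at 95 kb, and only 0.875% of all intervals were shorter; its 4 genes were all on the plus strand. Over the whole cluster 50 receptors were on the plus strand and 41 on the minus strand, in 28 runs of like strand of which the longest had 14 genes.

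The 5 intervals shared with other genes held from 1 to 10 receptors each. Olfr1417 to Olfr1420, the first of the cluster, lay with Gif, Mrpl16, a protein of the mitochondrial ribosome, and Stx3, a syntaxin of membrane fusion. Olfr1421-ps1 and Olfr1422-ps1 lay with Patl1 and Osbp. Olfr1441 was the single receptor in an interval with Pfpl, Mpeg1, Dtx4, Fam111a and Gm4952. Olfr1442 and Olfr1443 lay with Glyat, Keg1, Cntf, Zfp91 and Lpxn, and Olfr1444 to Olfr1453 with Gm5244 alone. Pfpl and Mpeg1 code for pore-forming proteins, the latter of macrophages, Dtx4 for an E3 ubiquitin ligase, Fam111a for a protease, Cntf for the ciliary neurotrophic factor and Zfp91 for a zinc finger protein.

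A minority of receptors began close to a boundary, a share near those of receptors elsewhere and of all genes. Distances were counted in 5 kb bins from the bin of the gene's 5′ end to that of the nearest boundary, and a gene within 20 kb was counted as near. Of the 91 members, 13 were near, or 14.3% (exact binomial 95% interval 7.83% to 23.2%, counting error only). The same count gave 17.9% of all 53843 annotated genes, 21.2% of all 21755 protein-coding genes and 11.7% of the 1316 receptors elsewhere. The members' share thus lay between that of other receptors and that of all genes, and its interval took in all 3 of these values.

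The 13 near receptors were spread over 7 of the 9 boundaries, with at most 3 at a boundary, that of 2.82. Olfr1495 started in a boundary's own bin. Olfr1421-ps1, Olfr1422-ps1, Olfr1453 and Olfr1505 started 5 kb away. Olfr1423, Olfr1440, Olfr1441, Olfr1452-ps1, Olfr1490 and Olfr1496 started 15 kb away, and Olfr1420 and Olfr1504 at 20 kb. For 7 of the 13 the nearest boundary was Strong. The same held for 5929 of the 9636 near genes over all chromosomes and for 66 of the 154 near receptors elsewhere. By annotation, 10 of 66 protein-coding receptors and 3 of 25 pseudogenes were near, 15.2% and 12%.

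Over all 91 members the median distance was 75 kb, with quartiles of 37.5 and 142.5 kb. Of the 91, 33 lay over 100 kb from any boundary, as did 604 of the 1316 receptors elsewhere and 17967 of all 53843 genes. The median was 95 kb for receptors elsewhere, 70 kb for all genes and 60 kb for protein-coding genes. The farthest members were Olfr1466 and Olfr1467, both 305 kb from a boundary in the middle of the 635 kb group.

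Of the 13 non-receptor coding genes in the span, 4 were near a boundary, or 30.8% (9.09% to 61.4%) against the 21.2% of all protein-coding genes. They were Patl1 at 5 kb, Gm4952 at 15 kb, and Glyat and Gm5244 at 20 kb. Pfpl started 25 kb from the nearest boundary, and Zfp91 and Lpxn started 30 kb from theirs. Osbp, Mpeg1 and Cntf were at 60 kb, Fam111a at 65 kb, Keg1 at 85 kb and Dtx4 at 100 kb. Their median was 30 kb and none lay beyond 100 kb, while 5762 of all 21755 protein-coding genes did. With 13 genes the intervals are wide and overlap those of the receptors. The span also held 25 noncoding records that are no receptors, among them 3 microRNA genes and 2 long intergenic RNAs, of which 5 were near.

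**Figure D3:**
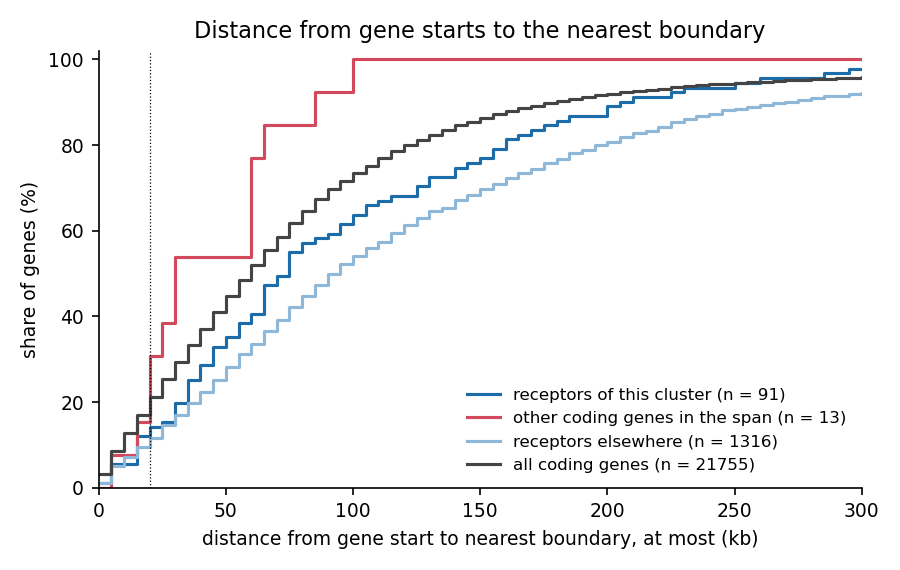
Share of genes (percent, cumulative) whose start lies at most the given distance in kb from the nearest boundary, up to 300 kb, for the cluster's 91 receptors, the 13 other coding genes of the span, the 1316 receptors elsewhere and all 21755 protein-coding genes. The dotted line marks 20 kb, where the shares are 14.3%, 30.8%, 11.7% and 21.2%.

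Receptors and other coding genes alternated along the cluster in 4 receptor blocks and 3 blocks of other genes. The first block, Olfr1417 to Olfr1420, covered 71.3 kb and held no boundary. The block from Olfr1421-ps1 to Olfr1441 held 23 receptors in 403 kb and had a Strong boundary near each end. The block of Olfr1442 and Olfr1443 covered 13.4 kb amid genes of the glycine N-acyltransferase family and held no boundary. The last and longest, Olfr1444 to Olfr1505, held 62 receptors in 1060.0 kb with 4 boundaries and no other coding gene.

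Of the 8 edges of the receptor blocks, 4 had a boundary bin within 20 kb. The same share was not counted for receptor blocks elsewhere, and this count was not tested. The edge nearest to a boundary was the end of the cluster at Olfr1505, 1.87 kb from its boundary. Next came the edge at Olfr1421-ps1 toward Osbp, 4.83 kb from the boundary of 2.82. The edge at Olfr1420 toward Patl1 was 6.92 kb from the boundary of 0.433, and the edge at Olfr1441 toward Pfpl was 18.6 kb from that of 0.792. In 3 of these 4 cases, at Olfr1505, Olfr1421-ps1 and Olfr1441, the boundary lay inside the receptor block and left 1 or 2 receptors on the side of the other genes or cut the last receptor itself.

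The remaining edges were farther from a boundary. The edge at Olfr1444 toward Gm5244 was 27.3 kb from the boundary of 0.814, which lay beyond Gm5244. The edges of the small block at Olfr1442 and Olfr1443 were 55.4 and 68.9 kb from the boundary of 0.347. The edge at Olfr1417 toward Stx3, where the cluster begins, was 78.2 kb from the nearest boundary. The cluster therefore ended at a Strong boundary and began without one near.

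Counted over neighbouring gene pairs, 5 of 87 receptor pairs had a boundary between their starts, or 5.75% (1.89% to 12.9%), against 4.45% of 1282 such pairs in the genome. Of 8 pairs of a receptor with another coding gene, 2 had one, or 25% (3.19% to 65.1%), against 33.3% of 249. These were Olfr1420 with Patl1, 25.8 kb apart, and Olfr1505 with Tle4, 685 kb apart with 2 boundaries between. Of 10 pairs without a receptor, 2 had a boundary between, or 20%, against 28% of 20476. Neighbouring receptors stood closer together, with a median of 14 kb between starts, than mixed pairs at 22.8 kb or pairs of other genes at 42.5 kb. Each share of the cluster has the genome's share inside its interval. The 5 receptor pairs were Olfr1422-ps1 with Olfr1423, Olfr1440 with Olfr1441, Olfr1453 with Olfr1454, Olfr1490 with Olfr1491 and Olfr1494 with Olfr1495.

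The span held 4.3 boundaries per Mb (exact Poisson 95% interval 1.96 to 8.15), against 3.37 per Mb on the rest of chromosome 19 and 3.15 per Mb over all chromosomes. The interval takes in both values. Among the 39 runs of at least 3 receptor genes with gaps of at most 1 Mb, 7 held at least 50 receptors. Their densities ran from 1.97 to 4.3 per Mb with a median of 2.77, and this cluster was the highest of them. Of the 23 runs with at least 10 receptors, 5 were denser.

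The clusters closest in number of receptors were those of chromosome 7 at 106675005 to 108894420, with 80 receptors, and of chromosome 10 at 128989431 to 130214403, with 67. The first held 8 other coding genes and 5 boundaries in 2.22 Mb, or 2.25 per Mb (0.731 to 5.26), of which 1 was Strong. The second held 1 other coding gene and 4 boundaries in 1.22 Mb, or 3.27 per Mb (0.89 to 8.36), of which 1 was Strong. Receptors within 20 kb were 10% and 11.9% there. The highest strengths were 1.79 and 0.722, below the 2.82 of this cluster. Among other clusters, those of chromosomes 9 and 1 with 123 and 26 receptors reached 3.07 and 2.85. In the 2 clusters closest in number, the longest stretches free of a boundary were 882 and 470 kb, on either side of the 635 kb here. The intervals of the 3 densities overlap, and none of these differences was tested.

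Within the cluster the 1.03 Mb up to the last other coding gene held 5 boundaries for 29 receptors, 3 of them Strong, with a median strength of 0.792. The 1.065 Mb of receptors alone held 4 for 62 receptors, 1 of them Strong, with a median of 0.279. Densities were 4.85 per Mb (1.58 to 11.3) and 3.76 per Mb (1.02 to 9.62). The single Strong boundary of the receptor-only part was that at Olfr1505.

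Repeat content moved with this division. Soft-masked repeats made up 36.9% of the part with other genes and 51.1% of the receptor-only part, against 34.3% of all callable bins, and GC content was 40.7% and 37.7% against 41.8%. Over the 25 kb around each boundary, repeats covered 68.6%, 70.6% and 60.8% at the Weak boundaries beside Olfr1453, Olfr1490 and Olfr1495. Of all boundaries, 97%, 97.6% and 92.5% had less. At the other 6 boundaries of the cluster repeats covered 31% to 48.7%. Over the whole list the median was 30.1% around Strong and 36.2% around Weak boundaries. Reads in repeats are harder to place, and neither their part in the strengths nor the mappability of these bins was tested. Sites for DpnII, the enzyme that cut the chromatin, were no rarer there: 3.88, 3.04 and 2.6 per kb, against a median of 2.52 around all boundaries. The span held 0 undetermined bases.

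**Figure D4:**
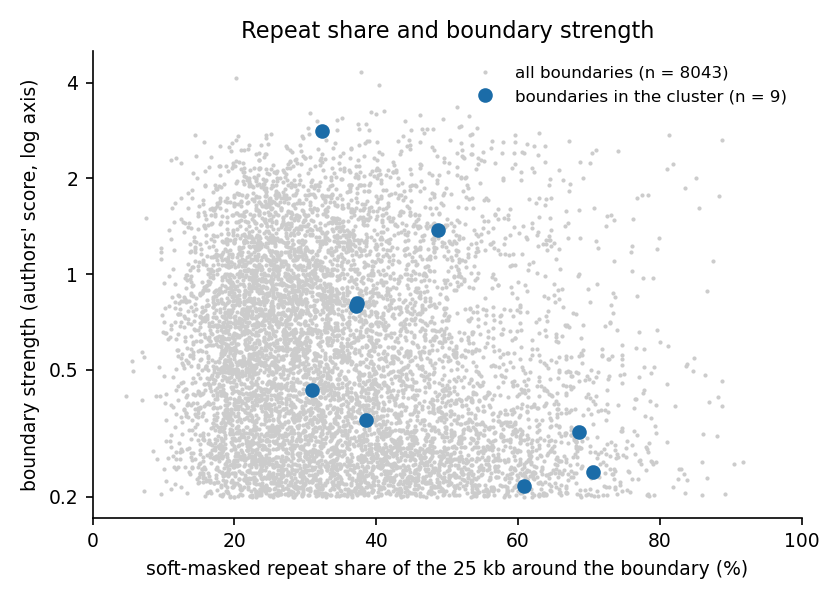
The authors' boundary strength (log axis) against the share of soft-masked repeats in the 25 kb around the boundary (percent), for 8043 boundaries in grey and the 9 of the cluster in blue. The 3 Weak boundaries among receptors alone lie at 60.8% to 70.6% repeats with strengths of 0.216 to 0.319, and the boundary of 2.82 lies at 32.4%.

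Exact matches to the CTCF core consensus, a motif of 14 bases written with ambiguity letters, were few in the cluster. The span held 2 exact matches on either strand, or 0.955 per Mb, against 2.57 per Mb over all callable bins. 1 boundary of 9, that in Lpxn, had an exact match within 20 kb, against 21.9% of all boundaries and 10.1% of all callable bins. Counts of 2 and 1 are too small to set the cluster apart from these rates. The exact matches are shown with 8 bases to each side, the core in capitals. The match in an intron of Lpxn was 5 kb from the boundary of 0.814 on the minus strand, reading away from it, and the match near Keg1, between genes, was 105 kb from that boundary.
Lpxn intron, chr19:12820575-12820604, minus strand: tctgaagaCCAGCAGGGGGCAGaatgggac
beyond Keg1, chr19:12722499-12722528, plus strand: ctggcaagCCAGCAGAGGGCAGcagcagga

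No exact match lay within 20 kb of the boundary of 2.82. With 1 mismatch allowed, 3 matches lay there, more than at any other boundary inside the span. They stood 15 kb to its left reading away, 10 kb to its left reading toward it, and within its bin. They are given in that order, with the core in capitals, because this is the strongest boundary of the cluster. A match of letters is no measurement of CTCF binding, and CTCF was not mapped here.
15 kb left, chr19:12012446-12012475, minus strand: agaagaggCCACAAGGGGGCAGtcacaccg
10 kb left, chr19:12015892-12015921, plus strand: tatacaggCCAGCAGAGGGCGTgtgtctga
in the boundary bin, chr19:12028751-12028780, plus strand: ttctgaaaCCAGCAAAGGGCACatactccc

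Allowing 1 mismatch gave 42 matches in the span, or 20 per Mb against 25.2 per Mb over all callable bins. Of the 42, 22 lay in soft-masked repeats, and of the 8 within 20 kb of a boundary 3 did. With 1 mismatch allowed, 62.1% of all callable bins had a match within 20 kb.

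The upstream sequences of the receptors were searched for the sites of the factors known at receptor promoters and enhancers. LHX2 is a homeodomain protein, here represented by the core TAATTA, and EBF proteins bind a palindrome of TCCC and GGGA with any 2 bases between them. Both were sought on both strands from 250 bases before to 50 bases after the GENCODE gene start, and the motifs have no overlap in sequence. For the 59 members matched in RefSeq, the start given there lay a median of 2.92 kb away. Many of these windows may therefore miss the promoter in use. TAATTA was present at 20 of the 66 protein-coding members, or 30.3%, and at 254 of 1069 protein-coding receptors elsewhere, or 23.8%. Of all protein-coding genes, 5.22% had it. None of the 13 other coding genes of the span did. Median GC content of these windows was 38.5% for the members, 37.3% for other receptors, 44.3% for the other genes of the span and 55% for all coding genes, and its part in the counts was not tested.

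The EBF palindrome was present at 1 of the 66, Olfr1448, against 2.62% of protein-coding receptors elsewhere and 1% of all protein-coding genes. The 250 bases upstream of Olfr1423 and Olfr1440 are shown because these receptors flank the 2 boundaries between which the group of 20 lies, and both hold TAATTA. Olfr1422-ps1 and Olfr1441, on the other sides of these boundaries, held neither motif there. The 250 bases upstream of Olfr1448 are shown for the palindrome. Motifs are in capitals, and their first bases lie at -146, -68 and -68 from the gene start.
Olfr1423, chr19:12041318-12041567, minus strand: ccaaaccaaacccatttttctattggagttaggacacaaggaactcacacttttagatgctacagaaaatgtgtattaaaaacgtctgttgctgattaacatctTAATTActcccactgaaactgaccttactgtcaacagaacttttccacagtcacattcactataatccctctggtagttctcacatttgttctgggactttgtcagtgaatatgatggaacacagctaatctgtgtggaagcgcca
Olfr1440, chr19:12387029-12387278, plus strand: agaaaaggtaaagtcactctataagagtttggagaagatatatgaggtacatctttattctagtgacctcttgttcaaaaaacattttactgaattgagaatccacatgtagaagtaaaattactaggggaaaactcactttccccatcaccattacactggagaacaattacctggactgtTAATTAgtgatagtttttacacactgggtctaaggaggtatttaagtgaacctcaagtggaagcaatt
Olfr1448, chr19:12924420-12924669, minus strand: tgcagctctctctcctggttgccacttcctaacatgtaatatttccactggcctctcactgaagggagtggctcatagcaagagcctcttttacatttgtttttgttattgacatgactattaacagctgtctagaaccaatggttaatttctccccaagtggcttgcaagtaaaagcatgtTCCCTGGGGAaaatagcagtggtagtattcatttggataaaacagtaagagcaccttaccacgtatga

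The coding sequences were compared to see how the intervals relate to the families of similar receptors. Of the 66 protein-coding members, 64 had a single coding exon, and coding lengths ran from 921 to 1077 bases with a median of 942. For 56 of the 66, the most similar member lay in the same interval, though it was the next protein-coding receptor along the chromosome for only 21. Of neighbouring protein-coding receptors, 58 pairs lay in the same interval and 7 had a boundary between, so nearby members usually share an interval whatever their similarity. The part of position in the 56 was not tested. Of the 60 pairs with at least 80% nucleotide identity, 52 lay in the same interval and 8 in different ones. Pairs in the same interval had a median identity of 66.4% (428 pairs) and those in different intervals 56.5% (1717 pairs). Their median distances differed too, at 125 and 846 kb, and the part of distance in this was not tested.

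**Figure D5:**
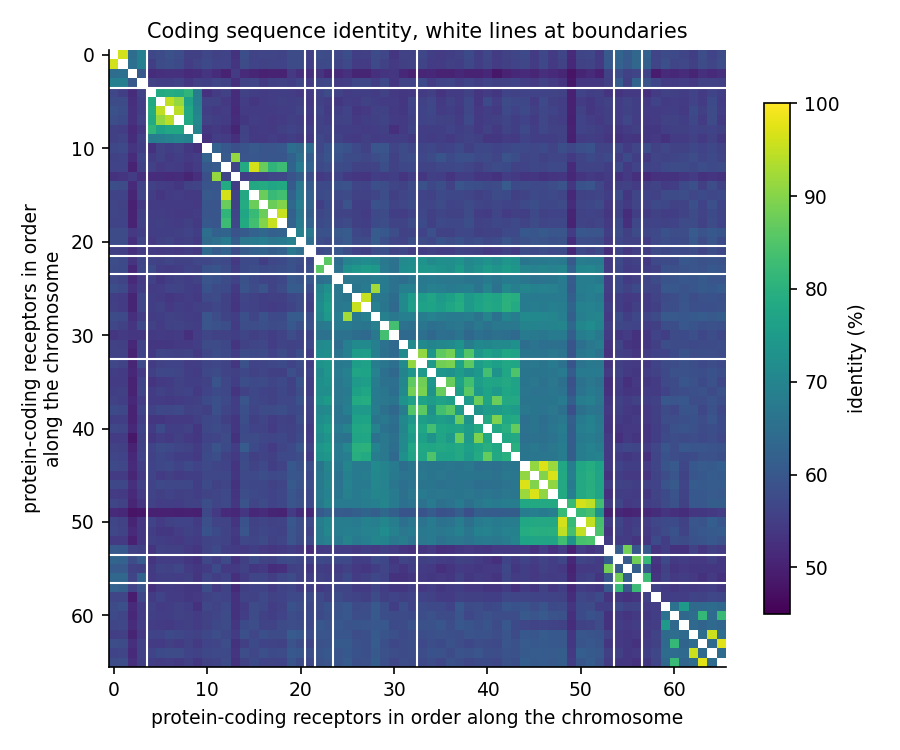
Nucleotide identity (percent, colour scale) between the coding sequences of the 66 protein-coding receptors, in order along the chromosome on both axes, with white lines where a boundary lies between neighbours. Of the 60 pairs with at least 80% identity, 52 lie in a single interval. Among the exceptions are Olfr1453 and Olfr1454 at 91.1%, the neighbours on either side of the line between rows 32 and 33 (counted from 0). Lower similarity also runs across lines, as for Olfr1447 and Olfr1461 at 79.1%. Some neighbours without a line between them have low identity, as Olfr1489 and Olfr1490 at 54.6%.

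The most similar receptors lay within a group. Olfr1502 and Olfr1505 shared 97.5% of coding bases, Olfr1471 and Olfr1474 97.1%, Olfr1472 and Olfr1475 96.9%, Olfr1431 and Olfr235 96.5%, Olfr1477 and Olfr1484 96.5%, and Olfr1417 and Olfr1418 96.3%. Each of these pairs lay in a single interval.

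Of the 7 pairs of neighbouring protein-coding receptors with a boundary between them, 5 were less similar than the median pair within an interval. A median leaves as many pairs below it as above, so 5 of 7 does not set these pairs apart. The exceptions were at Weak boundaries, but so were the less similar pairs Olfr1441 with Olfr1442 and Olfr1490 with Olfr1491. Among neighbouring protein-coding receptors, the 58 pairs in the same interval had a median identity of 73.4% (53% to 96.3%) and the 7 pairs across a boundary 64.7% (55.8% to 91.1%). Their starts lay a median of 19.8 and 46.2 kb apart, and the part of this distance was not tested. Across the boundaries of the part with other genes, identity was 55.8% for Olfr1420 and Olfr1423, 64.7% for Olfr1440 and Olfr1441, 57.1% for Olfr1441 and Olfr1442, and 65.7% for Olfr1443 and Olfr1444. Across the Weak boundaries of the receptor-only part it was 91.1% for Olfr1453 and Olfr1454, 60.9% for Olfr1490 and Olfr1491, and 82.4% for Olfr1494 and Olfr1495. Olfr1490 also shared 88.5% with Olfr1493-ps1 across the boundary of 0.239. All 8 pairs of at least 80% identity in different intervals thus lay across one of these 3 Weak boundaries, and 5 of them involved the boundary of 0.319.

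Olfr1453 and Olfr1454 differed at 82 of 921 coding bases. The first 90 coding bases of each are shown, since they are the most similar receptors that a boundary of the cluster separates. Capitals mark the 4 bases at which these stretches differ.
Olfr1453, chr19:13028238-13028327, minus strand: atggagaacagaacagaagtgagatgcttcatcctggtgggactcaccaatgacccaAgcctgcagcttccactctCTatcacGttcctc
Olfr1454, chr19:13063413-13063502, plus strand: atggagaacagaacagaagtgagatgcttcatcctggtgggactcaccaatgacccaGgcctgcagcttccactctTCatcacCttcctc
The genes read in opposite directions, toward the cluster's start and toward its end, with the boundary between their starts.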

How the data were processed

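In situ Hi-C libraries of 2 biological replicates were cut with DpnII, and the authors pooled them into 1 contact map on GRCm38 before boundaries were listed, per the series design text. How reads were mapped and which caller and window made the list is not given in the sources used here. In the deposited list each 5 kb interval has a class and a strength, which the authors left as a score without a stated scale. Contact lists, matrices, insulation and compartment tracks were not used here.

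Gene records came from GENCODE mouse release 21 and sequence from GRCm38.p6. A gene's start was the 5′ end of its record, and distance was counted in 5 kb bins. Intervals (95%) are exact Poisson or Clopper-Pearson and cover counting error only. With 1 pooled list no p-value was computed. Motifs were exact letter matches on both strands. The annotated starts of RefSeq matched 59 of the 91 members, and only 9 lay within 50 bases of GENCODE's. The median difference was 2.92 kb and the largest 11.5 kb. Upstream windows were read at GENCODE starts, and which of these starts the neurons use was not tested. Protein sequences were not used here, and identity was computed on coding nucleotides from global alignments, gaps counted as differences. Genes were named by a rule: receptors beside each boundary, the first and last receptor, every other coding gene of the span and the nearest coding gene to each flanking boundary. Further receptors (those near a boundary, farthest from one or most similar in sequence) were named after their values were seen. The members and lists were chosen with earlier results of these data known. Python 3.11.15, pandas 2.3.3, SciPy 1.17.1 and Biopython 1.88 were used. The distance count and the motif search were tested on simulated data, where 200 of 200 distances and 100 of 100 planted cores were recovered. A repeated sequence of the span is not reported here.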

Additional observations from a re-analysis of the deposited data

How the results depend on the processing

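Of 22 alternatives to the counts above, 9 stayed close and 13 moved, all 13 in the direction the change of window, class or motif sets by its construction. The 13 receptors within 20 kb became 5 at 10 kb, 32 at 50 kb, 7 with Strong boundaries alone and 5 with the top 25% of strengths (at least 0.928). The 4 other coding genes became 1, 7, 1 and 0 under the same settings. Density fell from 4.3 to 1.91 per Mb with Strong boundaries and to 0.955 with the top 25%. The largest group rose from 37 receptors to 62 and 85 under those settings, since fewer boundaries divide the cluster. Matches to the CTCF core within 20 kb rose from 1 to 9 when 1 mismatch was allowed, of which 1 lay just past the span. RefSeq gene starts, chosen after seeing the data, gave 10 of 59 matched receptors. No paired analysis was possible because both replicates were pooled into 1 list, and for the same reason no library was dropped. How many boundaries of low strength the map could resolve depends on its depth, which is unknown here.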
